A study of Homo sapiens with 30 samples.

Results

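Genes were compared between a gain and a loss of ANKRD10-2 in 5637 cells, a human bladder carcinoma line. Gain is the log2 fold change of cells transfected with a Flag-tagged ANKRD10-2 plasmid over cells with the empty plasmid (Vector). Loss is the log2 fold change of cells given an siRNA against ANKRD10-2 (siANKRD10-2) over cells given a control siRNA (siNC). Each of these 4 groups had 3 libraries of poly(A) RNA from cells transfected by lipofection, out of 30 libraries in the whole study, and rows of both tables were matched by gene identifier. A gene was called reciprocal when its log2 fold changes had opposite signs. The study's text places the ANKRD10-2 knockdown in cells whose RBPMS gene had been knocked out beforehand, whereas the labels name only 5637 cells, and the background of the siNC libraries was not stated. RBPMS itself had a log2 fold change of 0.03 (SE 0.14) between siANKRD10-2 and siNC, against −1.44 and −1.09 in the knockout libraries KO1 and KO2 of the same study over their wild-type libraries.

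Of 18279 genes tested in both comparisons, 10372 (56.7%) had opposite signs and 7907 had the same sign. Those that also passed edgeR's test in both comparisons (adjusted p under 0.05) numbered 2016, of which 1322 (65.6%) were reciprocal and 694 were not. The reciprocal genes fell into 740 that rose with gain and fell with loss (4.05% of the genes tested in both) and 582 that fell with gain and rose with loss (3.18%). The remaining genes were 363 that rose in both (1.99%) and 331 that fell in both (1.81%). Without Vector replicate 1 the 582 genes became 373, and without Vector replicate 2 the 740 became 493. These signs are what defined the classes, so the counts describe them and carry no test of their own.

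ANKRD10 encodes an ankyrin repeat protein made in a longer (ANKRD10-1) and a shorter (ANKRD10-2) splice form. MYC is a transcription factor that pairs with MAX and binds the E-box in DNA, and its targets include many genes of ribosome assembly, translation, protein folding and energy metabolism. Such growth genes are strongly transcribed in proliferating carcinoma cells. The question behind the comparison is which transcripts follow the amount of ANKRD10-2 in either direction.

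GENCODE 29 annotates a shorter coding transcript of the gene, ANKRD10-202, with 5 exons, while the longer ANKRD10-201 has 6. Exon 4 of ANKRD10-202 is coding, covers 94 bases of the minus strand at chr13:110894109-110894202 (GRCh38) and is absent from ANKRD10-201. It is shown because it separates the annotated forms, which the deposited counts, summed over all transcripts of the gene, do not.
ANKRD10-202 exon 4: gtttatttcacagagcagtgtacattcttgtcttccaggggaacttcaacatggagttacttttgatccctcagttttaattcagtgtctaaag

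The E-box CACGTG is a palindrome and reads the same on both strands. It was found in 7.26% of the 35116 windows (250 bases before to 50 after a start) of the RefSeq promoter table for GRCh38.p14. Among the windows of genes tested in both comparisons, 9.19% held it. The stretches below lie upstream of the starts of 4 reciprocal genes that belong to the gene lists described further on, and were picked after their values were seen, as examples of the motif. DDX21 is a nucleolar RNA helicase, HSPD1 the mitochondrial chaperone HSP60, LDHA lactate dehydrogenase A, and EIF4A3 an RNA helicase of the exon junction complex. Capitals mark the E-box.
DDX21, plus strand, chr10:68956576-68956646: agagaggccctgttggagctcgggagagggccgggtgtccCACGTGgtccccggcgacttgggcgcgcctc
HSPD1, minus strand, chr2:197500317-197500402: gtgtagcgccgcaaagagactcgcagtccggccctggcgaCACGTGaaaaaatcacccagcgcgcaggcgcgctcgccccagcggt
LDHA, plus strand, chr11:18394338-18394423: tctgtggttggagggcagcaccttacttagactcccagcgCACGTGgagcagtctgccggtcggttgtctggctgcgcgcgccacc
EIF4A3, minus strand, chr17:80147204-80147289: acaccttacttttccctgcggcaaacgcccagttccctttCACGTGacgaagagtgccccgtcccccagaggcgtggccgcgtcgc

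All 4 genes rose with gain and fell with loss. The log2 fold changes with gain and loss were 0.33 and −0.47 for DDX21, and 0.59 and −0.41 for HSPD1. They were 0.18 and −0.88 for LDHA, and 0.45 and −0.41 for EIF4A3. A promoter entry was found for 560 of the 740 and 399 of the 582 reciprocal genes, and for 11342 of all 18279. Among genes with an entry, the E-box was found in 13.8% of the first and 10.5% of the second reciprocal class. It was found in 9.4% of the genes that rose in both and 9.61% of those that fell in both, against 12.4% of all. These shares leave out the genes without an entry and were not tested.

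Total counts ranged from 31736779 to 41852653 in ANKRD10-2, from 34768436 to 47116480 in Vector, from 28511029 to 32141257 in siANKRD10-2 and from 32329422 to 32784584 in siNC. Counts given below are normalized within each comparison, so levels can be compared between the groups of a comparison and only loosely between the comparisons. Over all genes tested, 10.7% rose and 9.25% fell with gain, and 17.6% rose and 18.7% fell with loss. Of the siNC libraries, replicate 3 differed most from its group, with a chi-square per degree of freedom of 14.2 and 10.2 against replicates 1 and 2, which differed by 3.94. The labels do not say that the libraries came from separate cultures, so p-values measure the spread between these libraries, which may be technical. In bulk RNA, fewer cells that express a gene and less RNA per cell cannot be told apart.

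**Figure D1:**
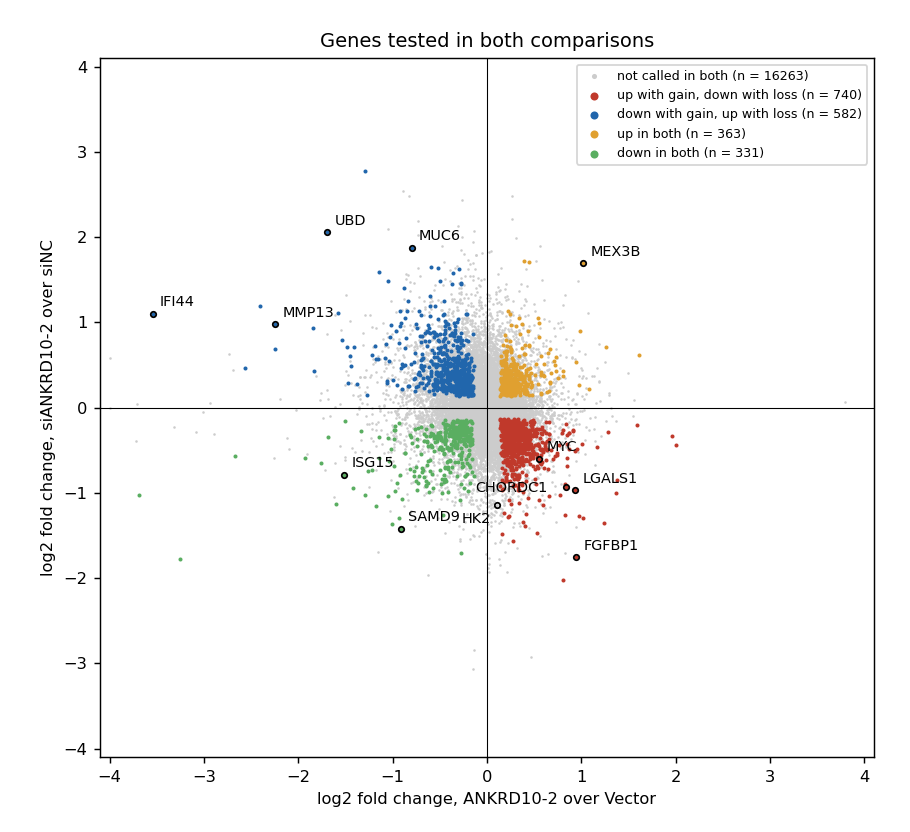
Log2 fold change with ANKRD10-2 gain (x axis) against that with loss (y axis) for the 18279 genes tested in both, 1 point per gene, with values beyond 4 drawn at the edge. Colored genes passed the test in both comparisons, with 740 and 582 in the reciprocal quadrants (lower right and upper left) and 363 and 331 in the same-sign quadrants, and circles mark some of the genes named in the text.

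The row of the targeted gene, which sums both splice forms, was higher with gain and lower with loss. ANKRD10 (chromosome 13, 110878540 to 110915069, minus strand) had 5914, 5859 and 5904 normalized counts in Vector and 8127, 7286 and 8010 in ANKRD10-2. In the knockdown it had 1781, 1682 and 1828 in siNC and 1453, 1496 and 1500 in siANKRD10-2. The groups did not overlap in either comparison, and the changes were modest, at 0.41 (SE 0.05, adjusted p = 8.3e-05) on the log2 scale with gain and −0.25 (SE 0.06, adjusted p = 0.00121) with loss. Reads from the plasmid and from the chromosomal gene are counted together in the gain. The same row changed by 0.67 (adjusted p = 4.41e-09) with ANKRD10-1 over Vector and by −0.25 (adjusted p = 0.014) with siANKRD10-1 over siNC, so it does not tell the ANKRD10-2 groups from those of ANKRD10-1. In the knockouts ANKRD10 fell by 1.18 and 0.76 on the log2 scale in KO1 and KO2.

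MYC rose with gain and fell with loss. Its normalized counts were 2063, 1946 and 2046 in Vector and 3198, 2859 and 2824 in ANKRD10-2. They were 1459, 1409 and 1513 in siNC and 1010, 979 and 906 in siANKRD10-2. The libraries of the groups did not overlap, and the log2 fold changes were 0.55 (SE 0.06, adjusted p = 2.16e-05) and −0.60 (SE 0.06, adjusted p = 3.74e-08). Its partner MAX did not pass with gain (0.13, SE 0.06, adjusted p = 0.131) and fell with loss (−0.44, adjusted p = 1.5e-06).

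Of 7 MYC target genes on a list of their own, 4 were reciprocal and called in both, namely C1QBP, DDX21, RSL1D1 and PGK1. C1QBP, a protein of the mitochondrial matrix, had 1602, 1691 and 1987 normalized counts in Vector and 2325, 2433 and 2519 in ANKRD10-2, and fell from 2982, 2985 and 3416 in siNC to 2173, 2167 and 2112 in siANKRD10-2. Its log2 fold changes were 0.46 (SE 0.07) and −0.54 (SE 0.06), and exons of 3 other rows of the tables overlap it. RSL1D1, a nucleolar ribosome assembly protein, changed by 0.47 with gain and −0.21 with loss. The glycolytic enzyme PGK1 changed by 0.14 (adjusted p = 0.0281) and −0.92 (adjusted p = 7.58e-13). The gain of PGK1 lost its call without ANKRD10-2 replicate 3 (adjusted p = 0.0818) or without Vector replicate 1, 2 or 3 (adjusted p = 0.0613, 0.0856 and 0.0931).

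The other 3 passed in 1 comparison each. HK2, the hexokinase that starts glycolysis in many tumor cells, had 5877, 5631 and 5616 normalized counts in Vector against 6169, 5985 and 6348 in ANKRD10-2, a change of 0.11 that did not pass (adjusted p = 0.111). With loss HK2 fell from 1154, 1083 and 1091 to 523, 516 and 475, which is −1.14 on the log2 scale (SE 0.07, adjusted p = 3.58e-12). The arginine methyltransferase PRMT3 had 0.18 with gain (adjusted p = 0.13) and fell with loss by 0.31 (adjusted p = 0.00568), a call that was lost without siANKRD10-2 replicate 1 (−0.23, adjusted p = 0.0582). WDR43, a factor of small ribosomal subunit assembly, rose with gain by 0.33 (adjusted p = 0.00212) and had −0.06 with loss (adjusted p = 0.354).

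**Figure D2:**
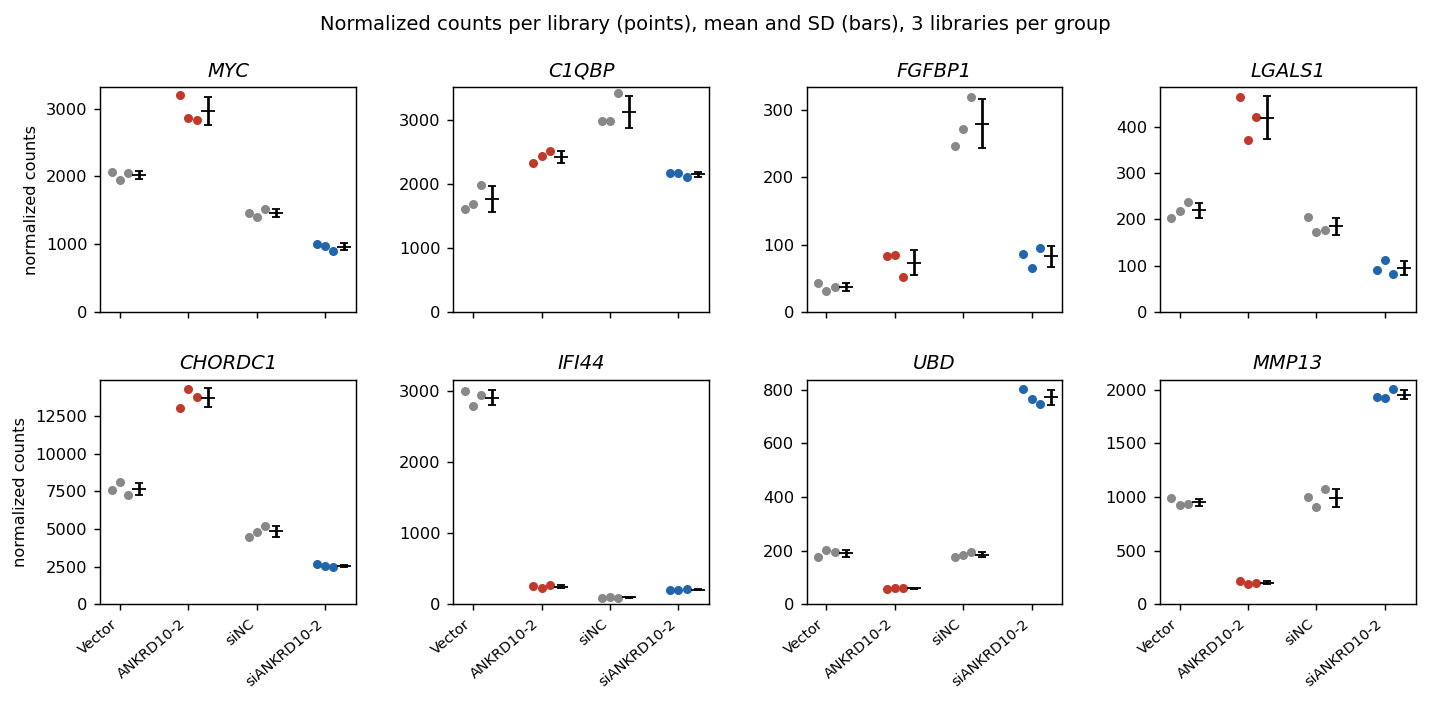
Normalized counts (y axis, from 0) of 8 reciprocal genes in the 3 libraries of each group (x axis), with the mean and SD beside the points. MYC, C1QBP, FGFBP1, LGALS1 and CHORDC1 were higher in ANKRD10-2 than in Vector and lower in siANKRD10-2 than in siNC. IFI44, UBD and MMP13 were the other way round. No pair of groups overlapped, which was a condition for naming all of these genes except MYC and C1QBP.

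Genes were then ranked by the smaller of their absolute log2 fold changes, among those with a mean of 50 or more normalized counts whose libraries did not overlap. Over all genes tested in both, libraries of the groups did not overlap for 38.2% with gain and 47.3% with loss. Among the 740 and 582 reciprocal genes, 704 and 553 showed no overlap in either comparison. So did 333 of the 363 genes that rose in both and 312 of the 331 that fell in both. The lack of overlap was thus not particular to the reciprocal genes, and its joint share over all genes was not counted. The first gene that rose with gain and fell with loss was FGFBP1, a secreted protein that releases fibroblast growth factors from the matrix. It had 43.7, 30.9 and 37.7 normalized counts in Vector, 83.1, 84.7 and 52.2 in ANKRD10-2, 247, 272 and 319 in siNC and 85.6, 66.2 and 95.9 in siANKRD10-2. The log2 fold changes were 0.95 (SE 0.25, adjusted p = 0.0159) and −1.75 (SE 0.15, adjusted p = 6.33e-10). The gain lost its call without ANKRD10-2 replicate 1 (adjusted p = 0.0649), ANKRD10-2 replicate 2 (0.0568) or Vector replicate 2 (0.0654).

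LGALS1, which encodes the sugar-binding protein galectin-1, followed with 204, 218 and 237 normalized counts in Vector and 464, 372 and 421 in ANKRD10-2. It had 205, 173 and 177 in siNC and 90.9, 112 and 82.5 in siANKRD10-2, and the log2 fold changes of 0.94 (SE 0.11) and −0.96 (SE 0.15) were of about the same size. CHORDC1, a co-chaperone of HSP90, rose from 7592, 8103 and 7255 to 13014, 14267 and 13779 with gain and fell from 4493, 4825 and 5196 to 2647, 2522 and 2475 with loss, which gave 0.84 (SE 0.05) and −0.93 (SE 0.06). EMP1, an epithelial membrane protein, changed by 0.77 and −1.03, and CRYBG2 (listed under its older name AIM1L) by 0.83 and −1.26. The adhesion molecule L1CAM changed by 0.83 and −0.89, the matrix protein THBS1 by 0.85 and −0.68, and DUSP10, a phosphatase of stress-activated MAP kinases, by 0.65 and −0.72. The tables place exons of ARHGAP4, on the same strand, over those of L1CAM.

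In the opposite direction, UBD, the ubiquitin-like modifier FAT10, had 177, 201 and 193 normalized counts in Vector and 56.1, 59 and 61 in ANKRD10-2. It had 175, 184 and 195 in siNC and 800.3, 766 and 745 in siANKRD10-2. Its control libraries stood at nearly the same level in both comparisons, and the log2 fold changes were −1.69 (SE 0.15) and 2.06 (SE 0.09). MMP13, a collagenase, fell from 991, 928 and 939 to 217, 193 and 194 with gain and rose from 1000, 904 and 1076 to 1932, 1927 and 2005 with loss (log2 fold changes −2.24 and 0.98). The interferon-induced gene IFI44 fell from 2992, 2781 and 2932 to 256, 222 and 266 with gain and rose from 89.4, 105.7 and 90.4 to 199, 199.7 and 215 with loss (−3.54 and 1.10). The levels in both loss groups were thus far under that of Vector. UBD overlaps exons of GABBR1 on the same strand.

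HEPHL1, a copper-containing ferroxidase, was the most abundant of this group. It fell from 6004, 5974 and 6309 to 3311, 3493 and 3413 normalized counts with gain and rose from 4593, 4538 and 4422 to 10438, 10743 and 11086 with loss (−0.84 and 1.25). CACNG8, a subunit of glutamate receptors in neurons, changed by −1.84 and 0.94, and the endocytosis protein PACSIN1 by −1.02 and 0.97. The gel-forming mucin MUC6 changed by −0.80 (adjusted p = 0.0181) and 1.88, and its gain lost its call without ANKRD10-2 replicate 3 (adjusted p = 0.078), Vector replicate 2 (0.0684) or Vector replicate 3 (0.0602). HNRNPH1P1 (−1.18 and 0.73) is a pseudogene of HNRNPH1, so that its reads may belong to the parent gene. HNRNPH1 itself rose in both comparisons (0.137 and 0.135), and the origin of the pseudogene's reads was not tested.

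Changes were small for most reciprocal genes. The median log2 fold changes were 0.30 with gain and −0.36 with loss for the 740 genes, and −0.36 and 0.40 for the 582 genes. A change of 0.5 or more in size, on the log2 scale, was reached in both comparisons by 41 of the 740 and 91 of the 582 genes, and by 15 and 50 of those that rose or fell in both. Among the genes nearest to the threshold, EP400 was inside with an adjusted p of 0.0499 with loss, and EIF4G2 and EGR2 were outside, both with 0.0501 with gain. The share of opposite signs was 57.7% among the 1925 genes called with gain alone, 58.8% among the 4772 called with loss alone and 53.7% among the 9566 called in neither. Across the 18279 genes, which are not independent replicates, Pearson's correlation of the log2 fold changes was −0.14 and Spearman's was −0.17.

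Of all gene lists examined, that of the cytosolic ribosomal protein genes held the largest share of reciprocal genes. With gain, 65 of 81 rose and 0 fell, at a median log2 fold change of 0.28. With loss, 62 fell and 1 rose, at a median of −0.39, while the medians over all genes tested in both were −0.004 and 0.0. Both changes passed in opposite directions for 52 of them (64.2%), all of which rose with gain and fell with loss, against 4.05% of all genes. RPS24 changed by 0.40 and −0.63, RPL10A by 0.38 and −0.60, RPS23 by 0.42 and −0.38, and RPS2 by 0.45 and −0.37. Many ribosomal protein genes have near-identical processed pseudogenes, between which the counting may divide reads.

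Of 199 genes in the first MYC target list, 103 rose and 3 fell with gain (median 0.17), and 29 rose and 84 fell with loss (median −0.10). Reciprocal calls were 53 up with gain and down with loss and 1 in the other direction, and 14 rose and 2 fell in both. RAD23B, a DNA repair and protein turnover factor, changed by 0.49 and −0.69, and TCP1, a subunit of the cytosolic chaperonin, by 0.59 and −0.48. Of 58 genes in the second list, 22 rose with gain and 0 fell, 12 rose and 21 fell with loss, and 9 were reciprocal. Among these, HSPD1 (0.59 and −0.41) and its partner HSPE1 (0.26 and −0.31) are mitochondrial chaperones, and NOP16 (0.46 and −0.32) is a nucleolar protein. A further 6 genes of this list rose in both, and without Vector replicate 2 its reciprocal genes numbered 5. The gene lists are not separate sets, so the same gene can count more than once. MYC, HSPD1, HSPE1 and NOP16 were in both MYC target lists. RPS2, LDHA, PSMD14 and EIF4A1 of the first list count again among the ribosomal protein, glycolysis, proteasome and translation genes.

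Further genes of protein synthesis, and those of the proteasome, were reciprocal in smaller shares. Of 47 translation initiation and elongation factors, 23 rose and 1 fell with gain, 6 rose and 19 fell with loss, and 11 rose with gain and fell with loss. EIF1, which helps to select the start codon, changed by 0.43 and −0.53, and EIF4A3 by 0.45 and −0.41. The poly(A)-binding protein gene PABPC1 changed by 0.39 and −0.45, and EIF6, which binds the large ribosomal subunit, by 0.28 and −0.36. Of 24 host genes of small nucleolar RNAs, 15 rose with gain and 2 rose and 5 fell with loss, and all of these 5 were reciprocal, among them SNHG8 (0.46 and −0.67), SNHG17 (0.62 and −0.43), GAS5 (0.64 and −0.40) and SNHG1 (0.58 and −0.31). Of 60 nucleolar ribosome assembly genes, 28 rose and 1 fell with gain, 11 rose and 22 fell with loss, and 8 rose with gain and fell with loss. DDX21 (0.33 and −0.47) and the small nucleolar ribonucleoprotein subunit NOP58 (0.39 and −0.32) led them. Of 34 proteasome subunit genes, 14 rose with gain, 4 rose and 17 fell with loss, and 7 rose with gain and fell with loss, with PSMD14 at 0.44 and −0.54. The last count was 4 without ANKRD10-2 replicate 1, Vector replicate 2 or siANKRD10-2 replicate 1.

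Stress-related lists held reciprocal genes in the same direction. Of 18 heat shock response genes, 16 rose with gain (median 0.61) and 3 rose and 10 fell with loss (median −0.20), and 10 were reciprocal (55.6%). Besides CHORDC1 and HSPD1, these included HSPA1B (2.00 and −0.43) and HSPA1A (1.97 and −0.33), inducible HSP70 genes that are nearly identical in sequence, so that reads may be divided between them. Of 21 antioxidant genes controlled by NRF2, 16 rose and 2 fell with gain, 2 rose and 11 fell with loss, and 9 rose with gain and fell with loss. GCLM, of glutathione synthesis, changed by 0.70 and −0.60, and the quinone reductase gene NQO1 by 0.41 and −0.48. The steroid-metabolizing enzyme gene AKR1C2 went the other way (−0.58 and 0.67) and has close paralogs. The 10 reciprocal genes of this list became 6 without ANKRD10-2 replicate 1 or Vector replicate 2.

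Genes of hypoxia and glycolysis were reciprocal in 1 direction. Of 19 hypoxia and HIF target genes, 14 fell with loss (median −0.43) and 0 rose, while 7 rose with gain (median 0.06), and 6 were reciprocal. The prolyl hydroxylase gene EGLN3 changed by 0.24 and −1.09, PDK1, a kinase that inhibits pyruvate dehydrogenase, by 0.17 and −0.64, and ANKRD37 by 0.57 and −0.50. Of 22 glycolysis enzyme genes, 10 rose with gain, 10 fell and 3 rose with loss, and 5 were reciprocal, among which ALDOA had 0.24 and −0.63, GPI 0.22 and −0.61 and LDHA 0.18 and −0.88. Without Vector replicate 2, each list held 2 reciprocal genes, and without Vector replicate 1, the glycolysis list held 3.

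Epithelial genes were reciprocal in part. Of 37, 13 rose and 2 fell with gain, and 2 rose and 19 fell with loss, and 9 (24.3%) rose with gain and fell with loss. These were led by the keratin genes KRT5 (0.44 and −1.06), KRT7 (0.37 and −0.66) and KRT17 (0.28 and −0.91). The keratin gene KRT13 fell in both comparisons (−0.48 and −0.84). The summed normalized counts of 16 urothelial or epithelial markers ranged from 150472 to 155712 in Vector and from 171583 to 192439 in ANKRD10-2, and from 207394 to 220943 in siNC and 126432 to 130625 in siANKRD10-2. KRT20, UPK1B and UPK3A, of differentiated urothelium, stayed at or below 3 normalized counts in all libraries of ANKRD10-2, siANKRD10-2 and siNC, as did UPK1B in Vector. The 8 immune markers summed to between 894 and 971 counts in Vector, 707 and 758 in ANKRD10-2, 396 and 457 in siNC and 304 and 329.5 in siANKRD10-2, lower than the control in both comparisons without overlap. CD68, with means of 799 counts over the gain and 349 over the loss libraries, made up most of these sums. At or below 3 counts were 3 of the 8 in each gain group and 5 in each loss group. The 4 endothelial markers summed to between 51.1 and 131. The 8 fibroblast markers summed to between 2690 and 2800.4 in Vector, 2746 and 3152 in ANKRD10-2, 1358 and 1410 in siNC and 1785 and 1926 in siANKRD10-2. The part of these marker levels in the results was not tested.

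Of 20 target genes of YAP and TEAD, 10 rose and 2 fell with gain, 3 rose and 9 fell with loss, and 6 rose with gain and fell with loss. TGFB2, a growth factor, changed by 0.62 and −0.44, the coagulation starter F3 by 0.32 and −0.82 and the receptor kinase AXL by 0.66 and −0.30. CCN2, a common marker of this pathway, went the other way (−0.31 and 0.39). Of 445 zinc finger genes with a ZNF symbol, 21 fell with gain and rose with loss and 3 did the opposite, so that 5.39% were reciprocal, against 7.23% of all genes. ZNF658B (−0.66 and 0.49), ZNF774 (−0.40 and 0.42) and ZNF589 (−0.40 and 0.38) were among the 21. ZNF143, which activates transcription of small nuclear RNA genes, was among the 3 (0.49 and −0.46).

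**Figure D3:**
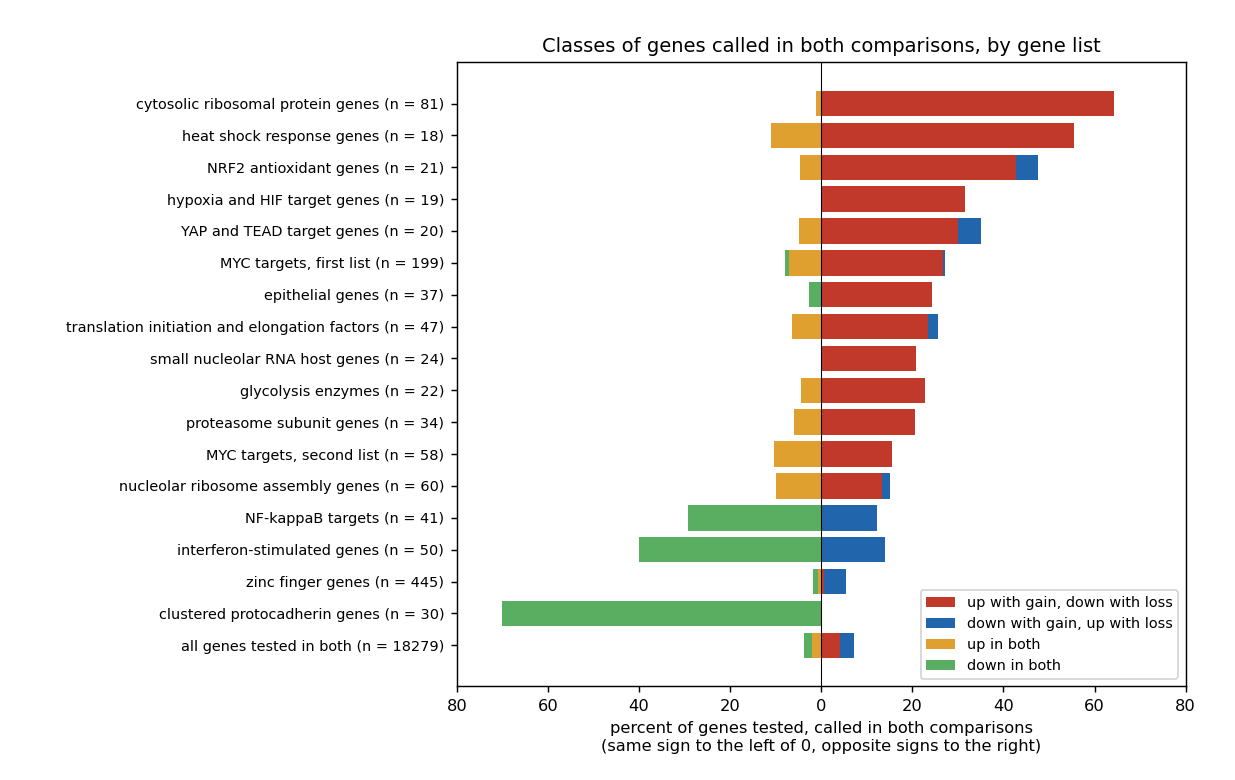
Percent of the tested genes of each list that passed in both comparisons (x axis), with opposite signs to the right of 0 and the same sign to the left, and all 18279 genes in the bottom row. The bar of the ribosomal protein genes reached 64.2% on the right, while that of the clustered protocadherin genes, 21 of 30, lay wholly on the left.

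Genes of the interferon response that were called in both mostly had the same sign. Of 50 interferon-stimulated genes, 48 fell with gain and 0 rose (median −1.49), and 21 fell and 8 rose with loss (median −0.14). The same sign was found for 20, all of which fell in both, and 7 fell with gain and rose with loss, among them OAS1, a sensor of double-stranded RNA (−2.57 and 0.47), and the protease gene USP18 (−1.84 and 0.43). Of the 4 genes named for a fall in both comparisons, ISG15, a ubiquitin-like modifier, changed by −1.51 and −0.79, and IFITM3, a membrane protein that restricts viral entry, by −0.90 and −1.08. The antiviral factors SAMD9 and SAMD9L changed by −0.91 and −1.42 and by −1.18 and −1.15. SAMD9 had 6553, 6394 and 6109 normalized counts in Vector and 3267, 3548 and 3327 in ANKRD10-2. It had 3610, 3803 and 3509 in siNC and 1406, 1298 and 1376 in siANKRD10-2. The treated groups were lower than their controls in both, and the lack of overlap was a condition for naming the gene. Of 41 NF-kappaB targets, 12 fell in both and 5 (12.2%) fell with gain and rose with loss. PTGS2, the inducible cyclooxygenase, was among the latter at −0.89 and 0.49. The 5 became 3 without ANKRD10-2 replicate 2 or 3, siANKRD10-2 replicate 2 or siNC replicate 2. Of 30 clustered protocadherin genes, which share exons within a cluster, 21 fell in both and 0 were reciprocal. Of 13 genes encoded by mitochondrial DNA, 6 fell in both and 1, MT-ND3, was reciprocal (−0.23 and 0.29). Without ANKRD10-2 replicate 3 there were 2 reciprocal genes in this list.

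The genes named for a rise in both comparisons were MEX3B, an RNA-binding protein gene (1.02 and 1.70), ID4, an inhibitor of helix-loop-helix transcription factors (0.98 and 0.90), MIR6819 (1.26 and 0.71) and PITHD1 (0.67 and 0.68). The row of MIR6819 covers the microRNA precursor (chromosome 22, 36286847 to 36286907), so in a poly(A) library its reads need not come from the mature microRNA. PITHD1 ranged from 590 to 1113 normalized counts in Vector and from 1224 to 1324 in ANKRD10-2, and its gain lost its call without Vector replicate 2 (adjusted p = 0.0574).

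The knockout libraries of RBPMS had no part in the choice of the classes. Of the 740 genes up with gain and down with loss, 686 were tested in KO1 over WT1, where 346 (50.4%) were higher and 63 (9.18%) lower. In KO2 over WT2, 346 of 686 were higher (50.4%) and 85 lower (12.4%). Of the 582 genes down with gain and up with loss, 53 (10.5%) of 507 were higher and 197 (38.9%) lower in KO1, and 78 (15.3%) of 509 were higher and 211 (41.5%) lower in KO2. Over the genes tested with gain and loss, 21.5% were higher and 20.6% lower in KO1, and 23.9% were higher and 22.0% lower in KO2. Over all genes tested in the knockouts the shares were 18.0% higher and 18.2% lower in KO1, and 19.4% higher and 19.2% lower in KO2.

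In both knockouts, 221 of 685 genes of the first class (32.3%) were higher and 18 lower, and 119 of 507 of the second class (23.5%) were lower and 26 higher, whereas 11.5% of the genes tested in both were higher in both and 9.36% lower in both. Genes that rose in both comparisons were higher in 31.6% and lower in 18.0% of cases in KO1, and in 38.1% and 16.7% in KO2, and 19.5% were higher in both knockouts. Genes that fell in both were higher in 31.0% and lower in 26.2% in KO1, and 29.3% were higher and 29.3% lower in KO2. Genes of all 4 classes were more abundant than genes at large. The median normalized count in the gain comparison was 2146 in the first reciprocal class and 968 in the second, 3182 in genes that rose in both and 849 in genes that fell in both, against 432 over all genes. The part of abundance in these shares was not tested.

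MYC was higher in both knockouts (log2 fold changes 0.42 and 0.17, adjusted p = 7.32e-05 and 0.032), as were C1QBP (0.81 and 0.51), DDX21 (0.79 and 0.66), RSL1D1 (0.61 and 0.26), PGK1 (0.73 and 0.09) and LGALS1 (1.28 and 1.47). MMP13 (−2.21 and −1.02) and UBD (−2.57 and −2.10) were lower in both. Of the other named genes, EMP1 (0.47 and 1.53), CRYBG2 (0.64 and 1.26), HK2 (0.82 and 0.72) and WDR43 (0.67 and 0.49) were higher in both. PRMT3 was higher in KO1 (0.68) and did not pass in KO2 (0.18, adjusted p = 0.0543). The study describes its quantitative PCR of MYC targets as a check of differences seen in this knockout RNA-seq. The rise of these targets in the knockouts is thus not independent of their choice. FGFBP1 was higher in KO1 and lower in KO2 (0.94 and −0.51), THBS1 was lower in KO1 and higher in KO2 (−0.18 and 0.90), and HEPHL1, which fell with gain, was higher in both (0.85 and 4.46). Ribosomal protein genes differed between the knockouts as well, with 42 of 81 higher and 10 lower in KO1 but 3 higher and 13 lower in KO2. Of the first MYC target list, 131 of 199 were higher in KO1 and 108 in KO2, and of the nucleolar genes 49 and 52 of 60.

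**Figure D4:**
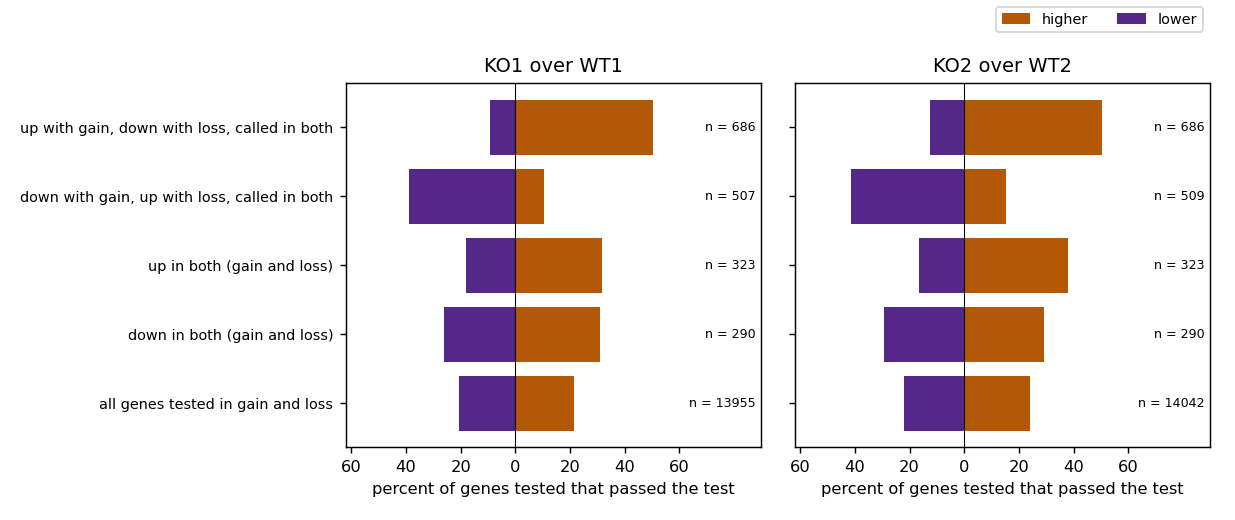
Percent of the genes of each class tested in KO1 over WT1 and KO2 over WT2 (x axis) that passed as higher (right of 0) or lower (left of 0), with the number tested beside each bar. The class up with gain and down with loss reached 50.4% higher in each knockout, and that down with gain and up with loss 38.9% and 41.5% lower, against 21.5% and 23.9% higher and 20.6% and 22.0% lower over all genes.

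Gain and loss of ANKRD10-1, the longer splice form, were measured against the same Vector and siNC libraries. Its values are thus set beside those of ANKRD10-2 without a comparison of calls. Over all genes, 3.51% rose and 2.81% fell with ANKRD10-1 over Vector, and 4.87% rose and 5.72% fell with siANKRD10-1 over siNC. The log2 fold changes of MYC were 0.16 with ANKRD10-1 (adjusted p = 0.0912) and 0.08 with siANKRD10-1 (adjusted p = 0.497). CHORDC1 had 0.65 and −0.19, LGALS1 0.30 and −0.33, and FGFBP1 0.08 and −0.60. MMP13 fell with ANKRD10-1 (−1.45) and rose with siANKRD10-1 (1.04), while UBD had −0.43 (adjusted p = 0.0953) and −0.04 (adjusted p = 0.885). IFI44 had −3.01 and −0.59, and both passed. Of 50 interferon-stimulated genes, 45 fell and 0 rose with ANKRD10-1 (median −1.26), beside 48 and 0 with ANKRD10-2, and 10 fell and 4 rose with siANKRD10-1. Of 18 heat shock response genes, 16 rose with ANKRD10-1 (median 0.45), as many as with ANKRD10-2, and 1 rose and 2 fell with siANKRD10-1. Of 81 ribosomal protein genes, 41 rose with ANKRD10-1 (median 0.18), and 3 rose and 1 fell with siANKRD10-1 (median 0.08). Of the first MYC target list, 56 of 199 rose and 2 fell with ANKRD10-1, and 18 rose and 8 fell with siANKRD10-1. The study's text places the ANKRD10-1 plasmid, too, in RBPMS-knockout cells, and RBPMS had −0.19 with ANKRD10-1 over Vector (adjusted p = 0.472).

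Gene length and biotype were not used in the choice of the classes. The exons of a gene, merged as the tables give them, had a median length of 4108 bases in the 740 genes and 6048 in the 582 genes, against 4004 over all genes tested in both and 4259 and 4831 in the genes that rose or fell in both. Among genes with a RefSeq biotype, 97.0% of the first and 90.6% of the second class were protein coding, as were 97.9% of those that rose in both and 94.2% of those that fell in both, against 88.7% of all. These are descriptions, and the part of length in the calls was not tested.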

How the data were processed

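RNA-seq of 5637 cells was analysed from the counts that the authors deposited, whole numbers of reads per gene without normalization. Per the labels, reads were trimmed with Trimmomatic 0.36 and counted with featureCounts of Subread 1.5.1 on GRCh38. The study's methods also name Cutadapt, HISAT2, StringTie and DESeq2, and the sources name stranded poly(A) kits, but not whether reads were counted by strand. The gain and loss tables list the same 56303 rows, of which 4 with a repeated, date-like identifier were left out, and identifiers of the knockout table were turned into symbols with the reference gene names.

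Each treated group was compared with its own control (3 against 3 libraries) with edgeR 4.0.16 in R 4.3.3: filterByExpr (minimum count 10, minimum total 15), TMM, quasi-likelihood test, prior count 0.125, Benjamini-Hochberg adjustment over all genes tested (20173 with gain, 18920 with loss) and adjusted p under 0.05. The scripts were tested on simulated counts. Exact permutation of 3 against 3 libraries cannot give a p under 0.1. No replicates agreed within sampling noise.

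Genes named were ANKRD10, RBPMS, MYC, MAX and 7 MYC targets, those ranked by the smaller of both changes (8 of each reciprocal class and 4 of each same-sign class, with a symbol, a mean of at least 50 counts and no overlap), and up to 4 reciprocal members of a list by the same ranking. EIF4G2, EGR2 and EP400, nearest to the threshold, were named after their values were seen. Lists were written by hand or taken by symbol. The members and lists were chosen with earlier results of these data known. RLE size factors, other filters, DESeq2, all libraries of a table, a replicate block, other thresholds and leaving out each library were tried.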

Additional observations from a re-analysis of the deposited data

How the results depend on the processing

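The reciprocal count was 1322, and 1318 with RLE size factors, 1347 without a filter, 1346 with a mean of at least 50 counts, 1125 with DESeq2 and 1393 with all 9 libraries of a table in 1 fit. DESeq2 shared 1082 genes with the 1322. Leaving out 1 library gave 882 to 1289 reciprocal and 462 to 700 same-sign genes, 2616 to 3533 genes called with gain (4018 with all libraries) and 55.8% to 57.5% opposite signs. Vector replicates 1 and 2 moved the gain count by over 1.5 times (2618 and 2616 without them), and Vector replicate 1 the same-sign count (462 without it). Without 1 library, 493 to 726 genes rose with gain and fell with loss and 373 to 563 did the opposite. With adjusted p under 0.01, 1995 genes were called with gain, 575 were reciprocal and 289 were not. With a change of 0.5 or more in size on the log2 scale, 1021 genes were called with gain, 2359 with loss, 132 were reciprocal and 65 were not. Without a filter 54.3% of genes had opposite signs. Without 1 knockout or wild-type library, 198 to 229 genes of the first reciprocal class were higher in both knockouts. Of the second class, 100 to 124 were lower in both. The classes were held fixed here, so no gain or loss library was left out for these counts.

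Replicate numbers are shared between groups, but same-numbered libraries deviated together only weakly (correlations 0.024, 0.052 and 0.07 with gain and −0.003, 0.003 and 0.013 with loss). Between libraries with different numbers, the correlations ran from −0.075 to 0.024 with gain and from −0.033 to 0.03 with loss. Whether same-numbered libraries belong together was not tested. With the replicate block, 4765 genes were called with gain and 6937 with loss, 1549 were reciprocal and 807 were not.

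RBPMS, called in neither comparison, ranged from −0.044 (without ANKRD10-2 replicate 3) to 0.165 with gain and from −0.04 (without siNC replicate 3) to 0.162 with loss when 1 library was left out, and was −0.028 with loss without siNC replicate 2. Of 840 values of named genes under alternatives, 13 lost their call, and PITHD1 did so with DESeq2 (adjusted p = 0.0737). Over the alternatives the reciprocal count ran from 2 to 6 in hypoxia genes (2 without Vector replicate 2), from 2 to 6 in glycolysis genes (2 without Vector replicate 2 and 3 without Vector replicate 1), from 5 to 10 in the second MYC target list, from 36 to 56 in the first and from 39 to 56 in ribosomal protein genes. The causes were not tested.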

Other observations

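Stress and respiratory chain genes held reciprocal genes in shares nearer to the 7.23% of all genes. Of 26 genes of the unfolded protein response of the endoplasmic reticulum, 17 rose with gain and 0 fell (median 0.28), while 6 rose and 4 fell with loss (median 0.03), and 2 were reciprocal (7.69%), HSPA5, the main chaperone of that compartment (0.91 and −0.26), and MANF (0.49 and −0.19). Of 28 ATF4 targets of amino acid stress, 14 rose with gain (median 0.35), 6 rose and 7 fell with loss (median 0.01), and 3 were reciprocal (10.7%). Of 80 nuclear genes of the respiratory chain, 11 rose and 1 fell with gain, 8 rose and 40 fell with loss, and 5 were reciprocal (6.25%). That count was 0 without Vector replicate 2, 1 without ANKRD10-2 replicate 1, 2 without Vector replicate 1 or 3, and 3 without ANKRD10-2 replicate 3, siANKRD10-2 replicate 1 or 2 or siNC replicate 3. The cyclin gene CCND1 fell by 1.48 with loss and rose by 0.16 with gain, and it was the 1 reciprocal gene of the 17 G1 cyclins, kinases and inhibitors, a list that held 0 without ANKRD10-2 replicate 2 or 3 or Vector replicate 1 or 2. These differences between the comparisons were not tested.

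Reciprocal genes of both directions stood side by side in other lists. Of 46 DNA replication genes, 3 rose with gain and fell with loss and 5 did the opposite, with the replication licensing gene CDC6 at 0.41 and −0.32 and the polymerase gene POLA1 at −0.36 and 0.39. These 8 became 4 without Vector replicate 2 or 3 or siANKRD10-2 replicate 1, and 5 without ANKRD10-2 replicate 2 or siNC replicate 3. Of 40 mesenchymal genes, 4 were reciprocal in each direction, among them the transcription factor gene SNAI2 (0.85 and −0.43) and the matrix protein gene TNC (−0.32 and 0.78), and the 8 became 5 without siNC replicate 2. Of 26 immediate early genes, 5 rose with gain and fell with loss, KLF4 among them (0.29 and −0.53), and 2, FOSB (−1.16 and 0.57) and DUSP6 (−0.70 and 0.29), did the opposite. Of 38 mitosis genes, 6 rose with gain and fell with loss, led by CDC20, an activator of the anaphase-promoting complex (0.47 and −0.43), and 1 did the opposite. These 7 became 3 without siANKRD10-2 replicate 2 and 4 without ANKRD10-2 replicate 2, Vector replicate 1 or siNC replicate 2. Among the 14 EGF receptors and ligands, the ligand gene NRG1 changed by 0.74 and −0.56 and the receptor gene ERBB3 by −0.32 and 0.44.

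The share of reciprocal genes was lowest on chromosome 16 (3.28% of 884 genes) and highest on chromosome 20 (9.85% of 477), against 7.23% of all genes tested in both.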
